A study of Mus musculus with 24 samples.

Results

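The genes described here are members of the TGF-beta, activin and BMP pathways: latent ligands and the proteins that hold or release them, extracellular inhibitors, receptors, SMAD transcription factors and intracellular regulators. They were chosen by gene symbol. Of the 42 symbols listed, 41 have a row among the 24007 genes of the count table, and Nog, which encodes the BMP antagonist noggin, was not analysed here. RNA was sequenced from 24 libraries of mammary epithelial cells of female FVB/N mice aged 10 to 12 weeks at estrus. Wild-type (WT) mice were set against mice lacking Id4, a protein that blocks the DNA binding of basic helix-loop-helix factors (KO); the labels do not say what part of Id4 the knockout removes. Glands of 4 to 8 mice were pooled per sample, and live cells without lineage markers were sorted into basal cells (CD24+CD29hiCD61+), luminal progenitors (LP, CD24+CD29loCD61+) and mature luminal cells (ML, CD24+CD29loCD61-). Each of these 3 populations has 4 replicates per genotype. The labels name no Cre driver or tissue-specific deletion, and all 6 groups share strain, sex, age range and cycle stage.

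In this pathway a ligand dimer brings type I and type II serine/threonine kinase receptors together, and the activated type I receptor phosphorylates receptor SMADs, which enter the nucleus with SMAD4. TGF-beta and activin signal mainly through SMAD2 and SMAD3, BMPs through SMAD1, SMAD5 and SMAD9, while SMAD6, SMAD7, the SMURF ligases and the SKI proteins restrain the pathway. In the mammary gland TGF-beta is known as a brake on ductal growth, and BMP target genes include the Id family to which Id4 belongs.

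Library totals ran from 3098433 to 7246445 estimated counts, so that 3 counts correspond to between 0.382 and 0.966 counts-per-million (CPM). All CPM values were scaled by the trimmed mean of M-values over the 24 libraries, and the p-values measure the spread between pooled samples. The sort labels held against marker genes: 10 basal markers summed to between 7861 and 14500 CPM in basal libraries and to at most 223 CPM in any luminal library, 9 luminal progenitor markers to between 5180 and 17110 CPM in LP libraries and to at most 1306 CPM in ML, and 9 mature luminal markers to between 4609 and 9128 CPM in ML libraries and to at most 1636 CPM elsewhere. Basal libraries carried 41.8 ± 31.4 CPM of Id4 in WT and 5.81 ± 5.54 CPM in KO (SD, n = 4), with at most 7 counts in any luminal library. Among basal libraries a pair stood apart. WT basal replicate 2 held 4751 CPM of the luminal progenitor markers, close to the lowest LP library, against 220 to 1333 CPM in the other basal libraries. It also held 141 CPM of immune markers against 9.30 to 30.9 CPM in the others, and KO basal replicate 3 held 298 CPM of 10 endothelial markers against 44.8 to 137 CPM. Results that rest on these libraries are given with and without them. In bulk samples fewer cells of a type and less RNA per cell cannot be told apart.

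The pathway was unevenly spread over the 3 populations, and most of the differences favoured basal cells. The betaglycan gene Tgfbr3, the ligand gene Bmp7, the latent TGF-beta binding protein genes Ltbp2 and Ltbp4 and the activin antagonist gene Fst were higher in WT basal cells than in either luminal population by log2 fold changes of 3.48 or more. Tgfb3 was higher in LP than in either other population, and Tgfbr2 and Bmpr1b were higher in ML than in either. Tgfb2 and Bmp2 had their highest values in LP and passed against ML but not against basal cells, and Inhba had its highest values in ML and passed against basal cells but not against LP. In edgeR's quasi-likelihood test at an adjusted p under 0.05, 13 of the 36 members tested passed between WT basal cells and LP, 12 higher and 1 lower in basal cells. Of all 12771 genes tested 15.8% passed, 9.12% higher and 6.68% lower. Between WT basal cells and ML 16 of 36 members passed, 13 higher and 3 lower, beside 24.6% of all genes (14% higher, 10.6% lower). Between WT LP and ML 10 of 36 passed, 6 higher in LP and 4 lower, beside 11.5% of all genes (6.62% higher, 4.89% lower). Libraries of the populations compared did not overlap for 12, 16 and 14 members, beside 19.5%, 27.3% and 23.8% of all genes. The members' median log2 fold changes were 0.67, 0.59 and -0.11 in these comparisons, and those of all genes were -0.03, 0.01 and -0.01. Without WT basal replicate 2 the counts of members that passed were 17, 19 and 10, with Acvr1, Bmpr2, Inhbb, Smad5 and Tgfbr1 added and Tgfb3 lost between basal cells and LP. Within replicates 1 and 2 alone they were 4, 6 and 0, and within replicates 3 and 4 alone 13, 17 and 7. Shares of all genes are not given here for these reduced fits. Their member counts therefore do not separate a general change in calls from one particular to the members.

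**Figure D1:**
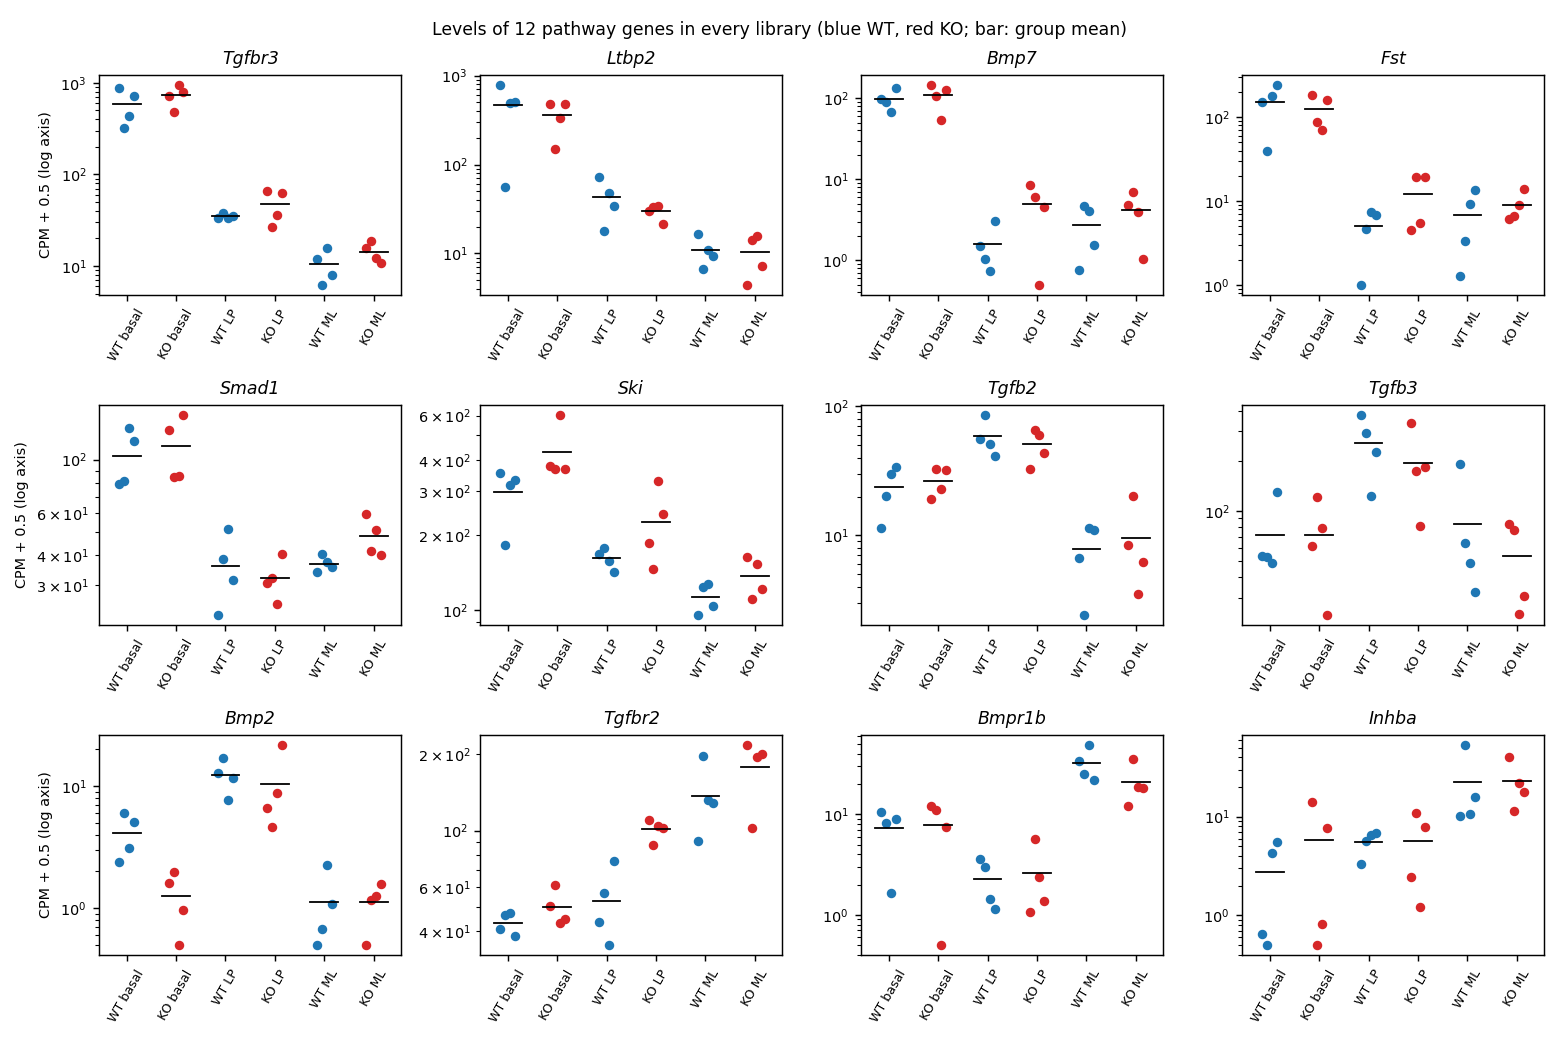
CPM plus 0.5 on a log axis for 12 pathway genes in each of the 24 libraries, by population and genotype (blue WT, red KO); bars are means of 4 libraries. Tgfbr3, Ltbp2, Bmp7 and Fst sit far higher in basal libraries than in luminal ones, and the lowest WT basal point of Ltbp2, 55.4 CPM, is replicate 2.

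The stretches just upstream of 4 members are shown, one or more for each place of highest expression: Ltbp2 and Acvr2a from the basal-high set, Tgfb2 from LP and Tgfbr2 from ML. They come from RefSeq's GRCm38.p6 starts, written 5′ to 3′ on the gene's own strand, and end at the start of transcription or, where the GENCODE gene begins further upstream, before it. Capitals mark E-boxes (CANNTG), which basic helix-loop-helix factors bind, and the SMAD element core CAGAC, searched on both strands. The stretches lie at chr12:84876533-84876741 (Ltbp2, minus strand), chr2:48813859-48814108 (Acvr2a, plus), chr1:186705990-186706239 (Tgfb2, minus) and chr9:116175364-116175613 (Tgfbr2, minus).
Ltbp2: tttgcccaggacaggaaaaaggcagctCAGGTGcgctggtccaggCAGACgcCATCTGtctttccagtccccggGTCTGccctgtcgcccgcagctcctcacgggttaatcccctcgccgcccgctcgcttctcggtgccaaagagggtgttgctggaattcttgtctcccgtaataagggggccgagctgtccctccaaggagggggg
Acvr2a: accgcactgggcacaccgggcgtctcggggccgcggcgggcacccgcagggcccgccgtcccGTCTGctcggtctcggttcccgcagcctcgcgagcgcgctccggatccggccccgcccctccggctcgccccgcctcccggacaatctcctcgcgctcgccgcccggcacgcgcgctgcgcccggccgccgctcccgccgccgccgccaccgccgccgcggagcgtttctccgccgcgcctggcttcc
Tgfb2: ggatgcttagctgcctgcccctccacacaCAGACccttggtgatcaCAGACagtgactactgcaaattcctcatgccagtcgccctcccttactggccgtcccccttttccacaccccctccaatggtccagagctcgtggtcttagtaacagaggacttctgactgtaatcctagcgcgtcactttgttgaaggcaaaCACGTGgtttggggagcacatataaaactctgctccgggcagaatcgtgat
Tgfbr2: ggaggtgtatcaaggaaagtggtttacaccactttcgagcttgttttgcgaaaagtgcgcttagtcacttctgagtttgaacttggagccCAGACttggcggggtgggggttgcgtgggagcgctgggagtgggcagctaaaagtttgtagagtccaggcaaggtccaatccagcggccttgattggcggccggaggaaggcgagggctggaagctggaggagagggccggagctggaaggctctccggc
Ltbp2 holds 2 E-boxes and 2 CAGAC cores, Tgfb2 1 E-box and 2 cores, and Acvr2a and Tgfbr2 each 1 core and no E-box; no E-box overlaps a core. RefSeq's table has an entry for 30 of the 42 members, with 38 starts. In the 250 bases before the start, 39.5% of these 38 windows hold CANNTG, beside 66.2% of all 32851 windows in the table, 42.1% hold CAGAC beside 42.2%, and 34.2% hold GGCGCC, a BMP SMAD element, beside 9.59%. The shares are not adjusted for the base composition of the windows. Of the members 5 have more than 1 start, and overlapping windows of the same gene, such as Ltbp4, were each counted. These are matches of letters, and binding was not measured.

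Of the 7 TGF-beta ligand and latency genes, 2 were higher and 1 lower in WT basal cells than in LP, 3 were higher in basal cells than in ML, and 3 were higher in LP than in ML. Each share was 42.9%, beside 15.8%, 24.6% and 11.5% of all genes. Fibroblast markers moved with the differences between LP and ML: of 6 tested in WT 4 were higher and 1 lower in LP (median log2 fold change 3.28), and of 8 in KO 6 were higher (median 3.84). Their summed level was 135 to 481 CPM in WT LP and 155 to 1061 CPM in WT ML, none of the 8 was at 0 in a WT LP library, and 1 to 4 were at 0 in WT ML libraries. Most of the WT ML sum was Dcn, the marker lower in LP and also a gene of the secreted modulators below. Dcn had 4819, 773, 5327 and 2847 unscaled counts in WT ML and 582, 167, 246 and 1073 in WT LP. The part of the fibroblast markers in the results was not tested. The ligand genes Tgfb2 and Tgfb3 had their highest values in luminal progenitors. Tgfb2 stood at 54.9, 85.5, 50.7 and 41.0 CPM in the WT LP libraries, at 11.0, 19.7, 29.1 and 33.5 CPM in WT basal and at 6.24, 1.93, 10.9 and 10.5 CPM in WT ML. All LP libraries lay above all others, and basal libraries above ML. Tgfb2 was higher in LP than in ML by 2.98 ± 0.50 on the log2 scale (SE; adjusted p = 0.001) and higher in basal cells than in ML by 1.70 ± 0.49 (adjusted p = 0.0176), while its difference of -1.28 ± 0.47 between basal cells and LP missed the threshold (adjusted p = 0.0812). The call between basal cells and ML was lost without replicate 3 (adjusted p = 0.0625) or 4 (0.0818). Tgfb3 reached 377, 294, 122 and 226 CPM in WT LP, 53.2, 52.4, 48.4 and 129 CPM in WT basal and 189.8, 63.9, 47.9 and 31.9 CPM in WT ML. The highest basal library and the highest ML library overlapped the lowest LP library. Tgfb3 was lower in basal cells than in LP by a log2 fold change of -1.81 ± 0.50 (adjusted p = 0.0214) and higher in LP than in ML by 1.62 ± 0.50 (adjusted p = 0.046). The results were recomputed under 12 alternatives (other scaling, tool, filter, model or set of libraries). The first call passed in 6 of them and failed without WT basal replicate 2 (adjusted p = 0.0531) or without replicate 1, 2 or 3 (0.0548 to 0.0933). The second passed in 5 of 12 and failed without WT basal replicate 2 (0.0505) or without replicate 2, 3 or 4 (0.119 to 0.16). Tgfb1 was low in every WT group, between 2.34 and 17.9 CPM, and passed in no comparison.

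Latent TGF-beta binding proteins are proteins of the extracellular matrix, and some of them, but not all, anchor the inactive ligand there. Ligand binding by their products was not measured. Ltbp2, at chr12:84783212-84876532 on GRCm38, stood at 794, 55.4, 497 and 499.7 CPM in WT basal libraries, at 71.1, 17.6, 47.0 and 33.3 CPM in WT LP and at 15.9, 6.13, 10.5 and 8.77 CPM in WT ML. Replicate 2 of the basal group fell below the highest LP library, and the other 3 lay well above. The log2 fold changes of basal cells were 3.48 ± 0.61 over LP (adjusted p = 0.00089) and 5.52 ± 0.67 over ML (adjusted p = 2.24e-05). Without basal replicate 2, the library rich in luminal progenitor markers, they were 3.84 and 5.88. LP exceeded ML by 2.05 ± 0.59 (adjusted p = 0.0324), a call that failed without replicate 1, 3 or 4 (adjusted p = 0.111 to 0.174). Ltbp4 followed the same order with 127, 52.2, 92.9 and 84.7 CPM in WT basal, 2.57 to 15.8 CPM in WT LP and 1.95 to 4.38 CPM in WT ML. Basal libraries did not overlap the luminal ones, and the differences of 3.54 ± 0.51 over LP (adjusted p = 0.000164) and 4.79 ± 0.55 over ML (adjusted p = 1.35e-05) passed in 12 of 12 alternatives. Ltbp1 and Ltbp3 passed in no comparison of all WT libraries (without WT basal replicate 2 Ltbp3 was higher in basal cells than in ML by 0.68 ± 0.24, adjusted p = 0.0425). Ltbp1 ran from 19.7 to 64.4 CPM over the 12 WT libraries and Ltbp3 from 90.2 to 246 CPM.

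Of the 6 BMP and activin genes, 2 were higher in WT basal cells than in LP, 2 were higher and 1 lower in basal cells than in ML, and 1 was higher and 1 lower in LP than in ML. The shares were 33.3%, 50% and 33.3%, beside 15.8%, 24.6% and 11.5% of all genes. Bmp7, a BMP ligand gene, was mostly a basal transcript. It stood at 96.4, 88.2, 66.4 and 135 CPM in WT basal, at 1.02, 0.538, 0.234 and 2.53 CPM in WT LP and at 0.26, 4.20, 3.55 and 1.02 CPM in WT ML. The fitted log2 difference was 6.43 ± 0.73 over LP (adjusted p = 1.99e-05) and 5.49 ± 0.69 over ML (adjusted p = 3.05e-05), and both passed in 12 of 12 alternatives. Bmp2, another BMP ligand gene, was low and highest in LP, with 12.2, 16.5, 7.24 and 11.2 CPM against 1.88, 5.56, 2.62 and 4.53 CPM in WT basal and 0, 0.175, 1.78 and 0.585 CPM in WT ML. No library overlapped between any of these groups. LP exceeded ML by 4.24 ± 0.90 (adjusted p = 0.0054; 0.0696 without replicate 4), basal cells exceeded ML by 2.59 ± 0.87 (adjusted p = 0.0399; 0.0802 to 0.194 without replicate 1, 2 or 4), and basal cells and LP did not pass. Bmp4 was at most 3.56 CPM in any WT library. Bmp1, a protease that cleaves procollagens and the BMP antagonist chordin, was lowest in LP, with 3.95, 5.56, 4.44 and 6.16 CPM against 22.6, 12.1, 48.6 and 25.4 CPM in WT basal and 21.5, 18.4, 12.8 and 20.0 CPM in WT ML. It was higher in basal cells than in LP by 2.47 ± 0.45 (adjusted p = 0.00128) and lower in LP than in ML, with a log2 fold change of -1.84 ± 0.44 (adjusted p = 0.012; 0.0942 and 0.0798 without replicate 1 or 4).

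Of the activin subunit genes Inhba, which encodes the beta A subunit, was low outside ML. It stood at 0.145, 0, 3.79 and 5.02 CPM in WT basal, 2.80 to 6.31 CPM in WT LP and 9.75, 52.9, 10.1 and 15.5 CPM in WT ML. Each ML library lay above all others, while basal and LP libraries overlapped. LP did not pass against ML (-2.09 ± 0.92, adjusted p = 0.173), and basal cells were below ML by a log2 fold change of -3.26 ± 0.98 (adjusted p = 0.0232). That call failed without replicate 1, 2 or 3 (adjusted p = 0.0516 to 0.121), and without replicate 2, which holds the ML library of 52.9 CPM, the log2 fold change was -1.90. Inhbb, which encodes the beta B subunit, was the member most affected by 1 library. It read 19.0, 239.9, 10.5 and 10.5 CPM in WT basal, where replicate 2 is the library rich in luminal progenitor markers, against 221, 132, 47.7 and 128 CPM in WT LP and 94.4, 95.3, 44.8 and 66.5 CPM in WT ML. With replicate 2 included, no WT comparison of Inhbb passed (log2 fold change of basal cells over LP -0.89 ± 0.82, adjusted p = 0.544). Without it Inhbb was lower in basal cells than in LP by a log2 fold change of -3.27 ± 0.46 (adjusted p = 0.000101) and than in ML by one of -2.45 ± 0.44 (adjusted p = 0.000645).

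Of the 3 inhibitor genes tested, 2 were higher in WT basal cells than in LP and 2 were higher than in ML. Each share was 66.7% of only 3 genes, beside 15.8% and 24.6% of all genes. Fst, whose product follistatin binds activin, stood at 151, 39.1, 178 and 245 CPM in WT basal, 0.509 to 7.01 CPM in WT LP and 0.78 to 13.0 CPM in WT ML. Basal libraries did not overlap the luminal ones, and the lowest of them was again replicate 2. The log2 fold changes were 5.14 ± 0.84 over LP (adjusted p = 0.000483) and 4.65 ± 0.81 over ML (adjusted p = 0.000547). Bambi, a membrane pseudoreceptor, was low at 7.82, 5.56, 10.2 and 5.99 CPM in WT basal, 3.97 to 6.47 CPM in WT LP and 0 to 2.10 CPM in WT ML. Its difference between basal cells and ML was 2.62 ± 0.81 (adjusted p = 0.0263), and it did not hold without replicate 1, 3 or 4 (adjusted p = 0.0558 to 0.134). Nbl1, a secreted BMP antagonist, had 113 counts over the 4 WT basal libraries and 2 counts over the 4 WT LP libraries, a ratio of 63.1 per scaled read (95% exact interval 17.1 to 527, counting error only), at 3.33 to 7.12 CPM in basal cells. Its calls between basal cells and LP (adjusted p = 0.00152) and between LP and ML (adjusted p = 0.00725; ML at 1.05 to 5.85 CPM) rest on those few counts, and the second was lost without replicate 1 (adjusted p = 0.0625) or 4 (0.0757). Grem1 and Chrd, 2 further BMP antagonist genes, had 13 and 35 counts in all 24 libraries together and were not tested.

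Receptor genes divided between the populations. Of 9 tested, 3 were higher in WT basal cells than in LP, 3 were higher and 2 lower in basal cells than in ML, and 2 were higher and 2 lower in LP than in ML. The shares were 33.3%, 55.6% and 44.4%, beside 15.8%, 24.6% and 11.5% of all genes. Tgfbr3, the betaglycan co-receptor that presents TGF-beta2 to the signalling receptors, showed the smallest adjusted p of any member: 868, 321, 429 and 715 CPM in WT basal, 33.2, 37.6, 32.9 and 34.9 CPM in WT LP, and 11.6, 5.78, 15.2 and 7.45 CPM in WT ML. The 3 groups did not overlap. Basal cells exceeded LP by 4.10 ± 0.35 (adjusted p = 1.4e-06) and ML by 5.91 ± 0.39 (adjusted p = 6.39e-08), and LP exceeded ML by 1.81 ± 0.33 (adjusted p = 0.00189). The first 2 differences passed in 12 of 12 alternatives and the third in 11. Acvr2a, a type II receptor for activins and BMPs, stood at 139, 146, 86.8 and 75.6 CPM in WT basal, 41.4 to 67.5 CPM in WT LP and 25.4 to 49.3 CPM in WT ML. Basal libraries lay above all luminal ones, by 1.08 ± 0.29 over LP (adjusted p = 0.0191; 0.0538 to 0.125 without replicate 1, 2 or 4) and 1.74 ± 0.30 over ML (adjusted p = 0.000486). Acvr2a shares 446 exon bases with Orc4 on the other strand, and where counting ignored strand such reads cannot be told apart.

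The signalling receptors of TGF-beta ran in opposite order. Tgfbr1, the type I receptor, stood at 161, 60.8, 303 and 183 CPM in WT basal, 65.1, 63.6, 139.7 and 113 CPM in WT LP and 16.0, 29.4, 56.6 and 38.9 CPM in WT ML. Basal libraries lay above all ML libraries and overlapped LP; without basal replicate 2 the log2 fold change over LP was 1.20 ± 0.39 (adjusted p = 0.0401). Tgfbr1 was higher in basal cells than in ML by 2.38 ± 0.47 (adjusted p = 0.00148) and in LP than in ML by 1.46 ± 0.46 (adjusted p = 0.0494), the latter passing in 6 of 12 alternatives and not without replicate 1, 3 or 4 (adjusted p = 0.0715 to 0.261). Tgfbr2, the type II receptor at chr9:116084293-116175360, stood at 40.4, 45.9, 46.6 and 37.7 CPM in WT basal, 43.0, 56.1, 34.8 and 75.4 CPM in WT LP and 90.6, 196, 131 and 128 CPM in WT ML. Each ML library lay above every basal and LP library. Tgfbr2 was lower in basal cells than in ML by a log2 fold change of -1.63 ± 0.29 (adjusted p = 0.000574) and lower in LP than in ML by one of -1.37 ± 0.28 (adjusted p = 0.00449). Per kilobase of deposited gene length, the ratio of Tgfbr1 to Tgfbr2 transcripts was 3.31, 1.10, 5.42 and 4.04 in WT basal libraries, 1.26, 0.945, 3.34 and 1.25 in WT LP, and 0.147, 0.125, 0.359 and 0.253 in WT ML. Type I transcripts outnumbered type II transcripts in every WT basal library, and type II outnumbered type I in every WT ML library. The KO libraries gave 2.23, 3.05, 4.28 and 2.78 in basal cells, 0.570, 0.796, 1.44 and 1.10 in LP, and 0.164, 0.281, 0.379 and 0.209 in ML. With exon lengths taken from the reference annotation every ratio was larger by the same factor, and the mean log2 ratio of KO LP, below 0 with deposited lengths, was 0.47.

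**Figure D2:**
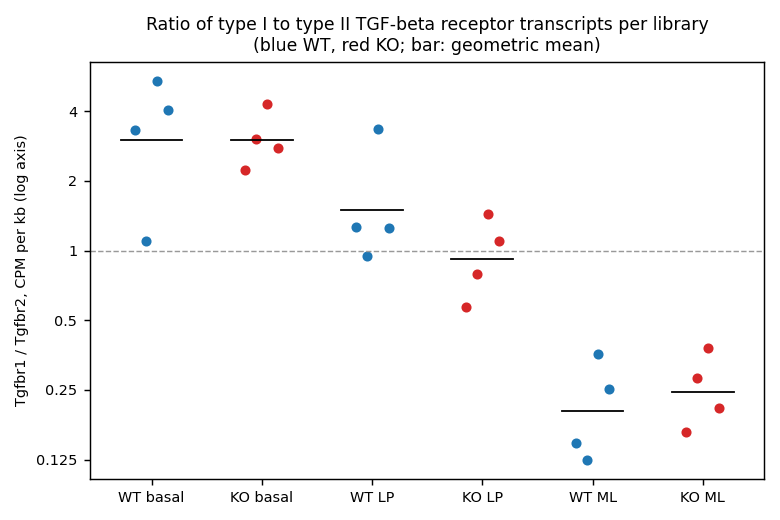
Ratio of Tgfbr1 to Tgfbr2 in CPM per kilobase (log axis) for each library, by population and genotype (blue WT, red KO); bars are geometric means of 4 libraries and the dashed line marks equal transcripts. All ML libraries lie below 1, from 0.125 to 0.379, and all basal libraries above it, from 1.10 to 5.42.

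Among the type I BMP receptor genes Bmpr1b stood apart. Bmpr1b, a type I receptor, was an ML gene at 33.4, 24.5, 48.5 and 21.6 CPM, against 10.0, 7.75, 1.17 and 8.58 CPM in WT basal and 0.631 to 3.06 CPM in WT LP. Each ML library lay above all others. It was lower in LP than in ML by a log2 fold change of -4.12 ± 0.66 (adjusted p = 0.000678) and lower in basal cells than in ML by one of -2.17 ± 0.60 (adjusted p = 0.0146; 0.0876 without replicate 3). A rise of 1.96 ± 0.62 in basal cells over LP (adjusted p = 0.0431) passed in 5 of 12 alternatives and failed without any 1 of the replicates (adjusted p = 0.0501 to 0.221). Bmpr1a, Bmpr2, Acvr1 and Acvr1b passed in no comparison of all WT libraries. Without WT basal replicate 2 basal cells exceeded LP by 0.94 ± 0.23 for Bmpr2 (adjusted p = 0.00696) and by 0.97 ± 0.29 for Acvr1 (adjusted p = 0.0277). Bmpr1a ran from 172 to 351 CPM and Bmpr2 from 244 to 597 CPM over the WT libraries, Acvr1 from 18.3 to 78.4 CPM and Acvr1b from 16.1 to 67.3 CPM. Acvr2b had 106 counts in the 24 libraries together and was not tested.

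Of the 8 SMAD genes, 2 passed between WT populations, Smad1 and Smad7, both higher in basal cells. Of the 7 tested that was 28.6% against LP and 28.6% against ML, beside 15.8% and 24.6% of all genes. Smad1, a BMP-activated SMAD, stood at 78.7, 81.0, 135 and 118 CPM in WT basal, 22.0 to 50.7 CPM in WT LP and 33.4 to 39.7 CPM in WT ML. Basal libraries did not overlap the luminal ones. The differences were 1.58 ± 0.30 over LP (adjusted p = 0.00152) and 1.56 ± 0.29 over ML (adjusted p = 0.00109). Smad7, the inhibitory SMAD induced by TGF-beta, stood at 36.7, 24.8, 116 and 153 CPM in WT basal, 11.5, 16.0, 31.1 and 38.5 CPM in WT LP and 12.4, 25.0, 35.1 and 36.1 CPM in WT ML. Basal replicates 1 and 2 lay among the luminal libraries. Its differences of 1.80 ± 0.56 over LP (adjusted p = 0.0388) and 1.66 ± 0.56 over ML (adjusted p = 0.04) each passed in 6 of 12 alternatives and failed without replicate 1, 3 or 4 (adjusted p = 0.0571 to 0.194). The TGF-beta SMAD genes Smad2 and Smad3, the common Smad4, and Smad5 were present throughout, between 24.6 and 127 CPM in every WT library, and did not pass; without WT basal replicate 2 Smad5 did between basal cells and LP (0.64 ± 0.21, adjusted p = 0.0354). Smad6 was at most 9.03 CPM in WT, and Smad9 was at 0 in 16 of the 24 libraries and was not tested.

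Of the 4 genes of intracellular regulators only Ski passed between WT populations. That was a share of 25% for basal cells against LP and 25% against ML, beside 15.8% and 24.6% of all genes. Ski and Skil encode transcriptional co-repressors that bind SMADs. Ski stood at 354, 181, 315 and 332 CPM in WT basal, 168, 177, 157 and 142 CPM in WT LP and 95.4, 124, 127 and 103 CPM in WT ML. The 3 groups did not overlap. Basal cells exceeded LP by 0.91 ± 0.22 (adjusted p = 0.0103; 0.0599 to 0.11 without replicate 1, 3 or 4) and ML by 1.44 ± 0.23 (adjusted p = 0.000222). Per kilobase of deposited length, Skil was the highest member in each WT population, at 130.2 ± 48.8 CPM per kilobase in basal cells, 128 ± 30.5 in LP and 74.0 ± 29.3 in ML (SD, n = 4). The next highest were Tgfbr3 in basal cells (101 ± 43.8), Tgfb3 in LP (75.3 ± 31.9) and Bmpr1a in ML (54.3 ± 3.45). In basal cells and ML the gap between the first and second was smaller than the SD of Skil, and with exon lengths of the reference annotation the order turned, with Tgfbr3 at 89.1 and Skil at 84.5 in basal cells and Bmpr1a at 49.7 and Skil at 48.1 in ML. Skil itself passed between no WT populations (without WT basal replicate 2, basal cells exceeded ML by 1.03 ± 0.31, adjusted p = 0.018), nor did Smurf1 (14.1 to 50.8 CPM) or Smurf2 (89.2 to 254 CPM), which encode ubiquitin ligases for receptors and SMADs. Tgfbi, a matrix protein gene named for its induction by TGF-beta, was at most 2.96 CPM in WT.

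Population differences recurred in the KO mice, whose libraries are separate from the WT ones. Between KO basal cells and LP 15 of 36 members passed, 12 higher and 3 lower in basal cells, beside 14.8% of 12711 genes tested (8.12% higher, 6.69% lower). Between KO basal cells and ML 14 of 36 passed, 12 higher and 2 lower, beside 19.4% (11.9% and 7.51%). Between KO LP and ML 5 of 36 passed, all higher in LP, beside 5.67% (4.08% and 1.59%). Libraries did not overlap for 17, 14 and 10 members, beside 19.3%, 24.9% and 18% of all genes. Without KO basal replicate 3, a fit for which the shares of all genes are not given here, the members that passed were 14 (11 higher, 3 lower), 13 (11 higher, 2 lower) and 7. The 2 added between LP and ML were both lower in LP: Bmp1 (-1.68 ± 0.48, adjusted p = 0.0436) and Bmpr1b (-3.24 ± 0.68, adjusted p = 0.00686). Between basal cells and LP 9 members passed in both genotypes, 69.2% of those in WT and 60% of those in KO, where over all genes the shares were 55% and 58.9%. Between basal cells and ML 13 passed in both, 81.2% of the WT and 92.9% of the KO members, beside 54% and 68.9% of all genes. Between LP and ML 5 passed in both, 50% and 100% of the members, beside 39.5% and 80.6% of all genes. All of these shared members had the same direction in both genotypes, as did all 1110, 1697 and 581 genes shared over the whole table. Of the 10 members that passed between LP and ML in WT, 9 were fitted with the same sign in KO. Over all genes this held for 1431 of 1470. The exception among the members was Nbl1, at -4.67 in WT and 0.86 in KO. Tgfbr3 in KO stood at 723, 473, 955 and 794 CPM in basal, 26.4 to 65.7 CPM in LP and 10.2 to 18.2 CPM in ML, and Bmp7 at 147, 107, 52.8 and 124 CPM in basal against 0 to 8.07 CPM in the luminal libraries. The order seen in WT was thus present for these genes in KO, with log2 fold changes of basal cells over ML of 5.82 ± 0.38 (adjusted p = 1.04e-07) and 4.93 ± 0.81 (adjusted p = 0.00033). Inhbb, Acvr1b and Smad5 passed in KO and in no comparison of all WT libraries. KO basal cells exceeded KO LP by 1.27 ± 0.35 for Acvr1b (adjusted p = 0.0213) and by 0.95 ± 0.26 for Smad5 (0.0189). Each of these calls passed in 7 of 12 alternatives. For Inhbb KO basal libraries held 8.48, 26.6, 8.05 and 4.89 CPM, KO LP 249, 94.4, 56.1 and 74.2 CPM and KO ML 151, 68.6, 86.3 and 85.3 CPM. Basal libraries lay below all luminal ones, by log2 fold changes of -3.19 ± 0.55 against LP (adjusted p = 0.000763) and -2.90 ± 0.55 against ML (adjusted p = 0.00111). Without WT basal replicate 2 Inhbb passed in WT as well, as given above. Passing in 1 genotype does not show a difference between genotypes, and none of the interaction tests described next passed.

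**Figure D3:**
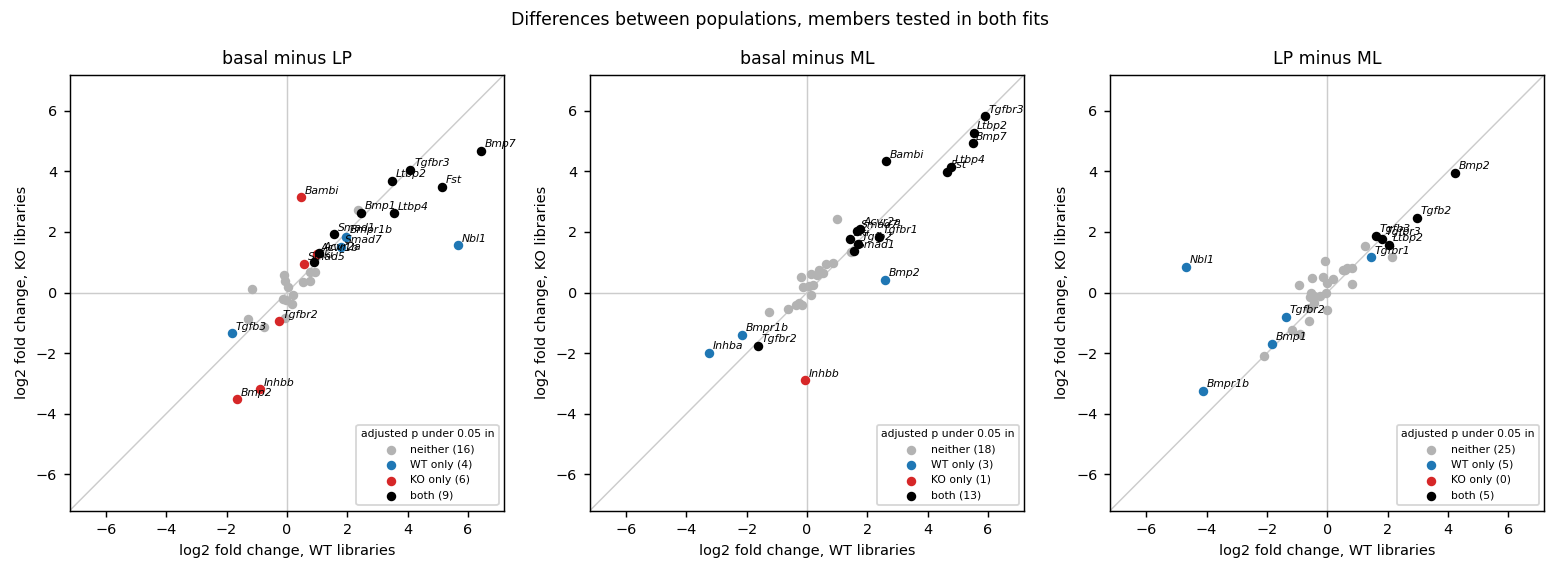
Fitted log2 fold changes between populations in WT libraries (horizontal) and KO libraries (vertical) for the 35 members tested in both fits; the diagonal marks equal values and colours show in which genotype the adjusted p was under 0.05. Tgfbr3 and Ltbp2 lie near the diagonal in the basal comparisons, and Inhbb lies below it. Between basal cells and LP Bmp7 also lies below the diagonal, at 6.43 in WT and 4.68 in KO.

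No member passed between KO and WT in any population. In edgeR 0 of 36 members passed in basal cells (0% of 11307 genes), 0 of 33 in LP (0% of 11700) and 0 of 32 in ML (0.00851% of 11747, which is 1 gene). Before adjustment 1, 1 and 2 members had p under 0.05, as did 383, 439 and 455 of all genes. DESeq2 and limma voom with sample weights also called 0 members in each population. The median log2 fold changes of the members were 0.11, 0.17 and 0.11, those of all genes 0.01, 0.00 and 0.01, and 31 of 36, 30 of 33 and 32 of 32 members were fitted within 1 log2 unit of no change. The median standard error of a member was 0.45 in basal cells, 0.30 in LP and 0.31 in ML. Differences of 2-fold, and larger ones, could go undetected. In simulated data 2-fold changes were called for 0% of the changed genes in basal cells, 13% in LP and 16% in ML. For simulated 4-fold changes these shares were 36%, 81% and 88%. Id4 itself, at a mean of 41.8 CPM in WT and 5.81 CPM in KO basal libraries, was not called in basal cells either. The change between genotypes also passed for 0 of 37 members when compared between populations (0% of 14082 genes in each of the 3 interaction contrasts, with 3, 1 and 1 members and 980, 970 and 186 genes at an unadjusted p under 0.05). Its smallest p belonged to Nbl1 between basal cells and LP, with a log2 difference of -4.13 (adjusted p = 0.513), and between LP and ML, with 5.49 (adjusted p = 1), and to Inhbb between basal cells and ML, with -2.89 (adjusted p = 0.62).

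**Figure D4:**
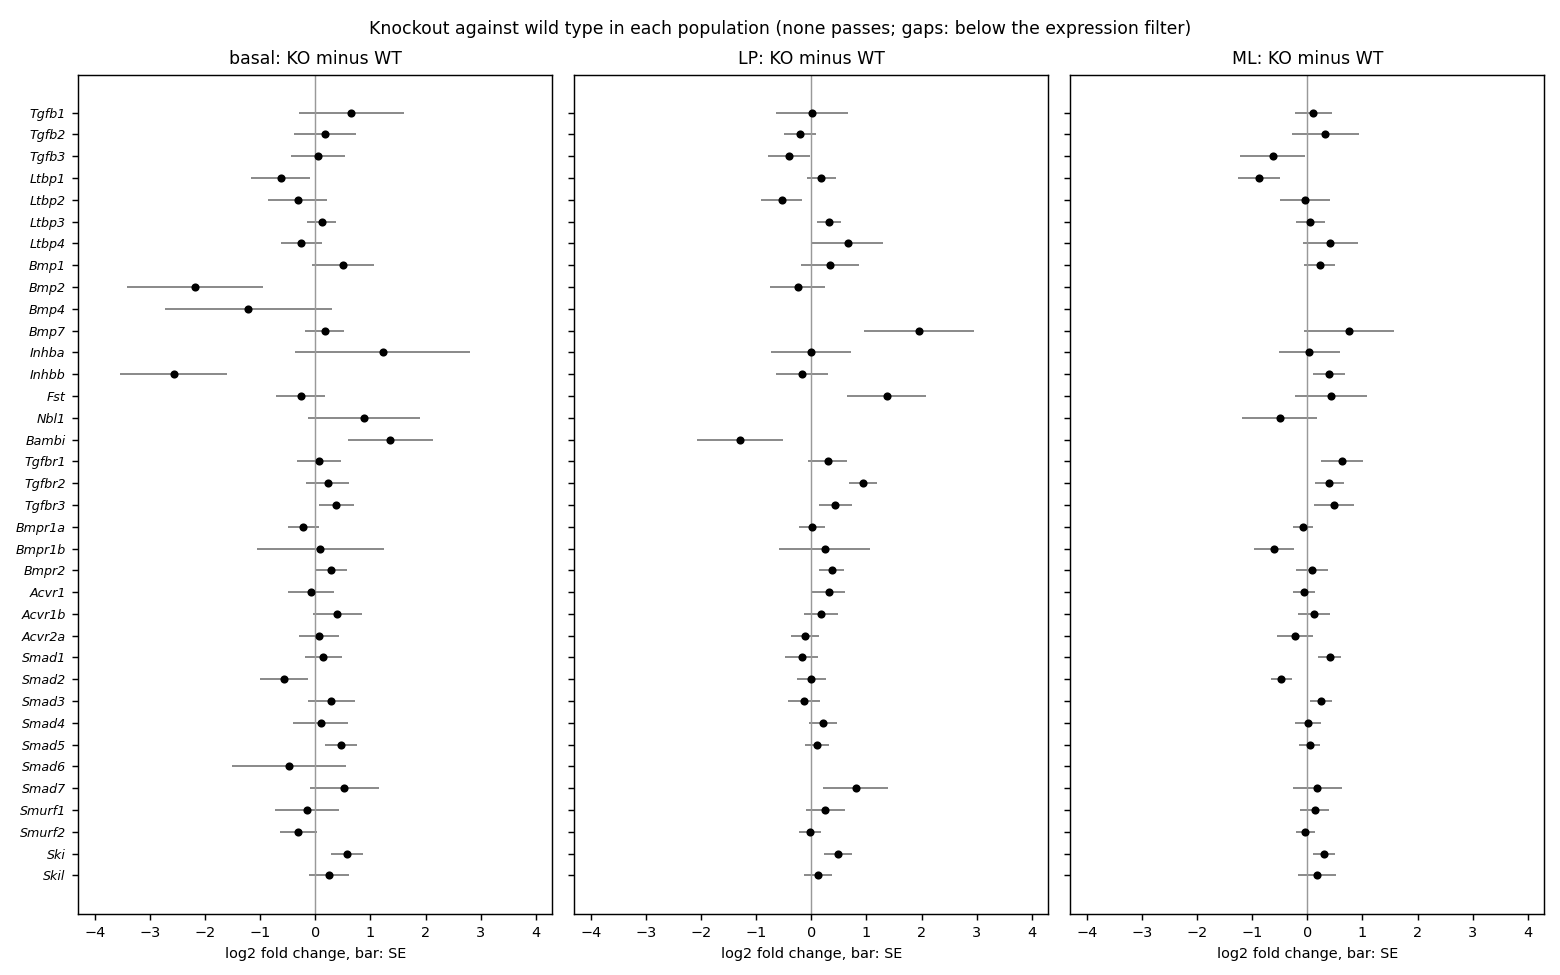
Fitted log2 fold change of KO over WT with its standard error for each tested member in basal, LP and ML libraries (4 against 4), ordered by role; gaps are members below the expression filter of that population. None passes, and Tgfbr2 in LP, at 0.93 with a standard error of 0.25, lies furthest from 0 for its error.

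In basal cells the smallest p was that of Inhbb, at -2.57 ± 0.96 (adjusted p = 0.998), and it rested on WT basal replicate 2: without that library the log2 fold change was -0.09 (adjusted p = 0.999). Luminal progenitor markers moved with it, since all 9 were fitted lower in KO basal cells and that library alone held 4751 CPM of them; their part in the result was not tested. Ski was next, at 378, 367, 605 and 367 CPM in KO against 354, 181, 315 and 332 CPM in WT. Every KO library lay above every WT library, which held for no other of the 36 members (Bmp2 lay below; 2.61% of all genes did not overlap). The difference of 0.58 ± 0.29 had an adjusted p of 0.998. Its highest value is that of KO basal replicate 3, the library with the most endothelial marker RNA, and without that library the log2 fold change was 0.33. Bambi followed, with 8.64, 22.0, 31.2 and 11.6 CPM in KO against 5.56 to 10.2 CPM in WT (1.36 ± 0.77, adjusted p = 0.998; 0.94 without KO basal replicate 3).

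In luminal progenitors Tgfbr2 stood at 109, 87.5, 104 and 102 CPM in KO and at 43.0, 56.1, 34.8 and 75.4 CPM in WT. Each KO library exceeded each WT library, as for no other of the 33 members tested (Bambi lay below; 2.61% of genes did not overlap). Nbl1, too low to be tested between KO and WT LP, had 43, 10, 10 and 8 counts in KO LP and 1, 0, 1 and 0 in WT LP. For Tgfbr2 the log2 difference was 0.93 ± 0.25 with an adjusted p of 0.999 in edgeR and 0.401 in DESeq2. With only replicates 1 and 2 it was 1.00, and with only replicates 3 and 4 it was 0.86. Mature luminal markers, which mark the population where Tgfbr2 is highest, moved the same way: their sum was 904 to 1636 CPM in KO LP and 489 to 768 CPM in WT LP, all 8 tested were fitted higher in KO and at most 1 of the 9 was at 0 in any LP library. Their part in the Tgfbr2 values was not tested. Bmp7, at 8.07, 5.51, 0 and 4.02 CPM in KO LP and 0.234 to 2.53 CPM in WT LP (1.95 ± 1.00, adjusted p = 0.999), and Ski (0.48 ± 0.25, adjusted p = 0.999) were next, and their groups overlapped.

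In mature luminal cells Smad2 stood at 52.0, 50.9, 48.5 and 48.8 CPM in KO and at 74.9, 54.5, 70.4 and 80.8 CPM in WT. It was the 1 member of 32 whose groups did not overlap (2.75% of genes), with a log2 fold change of -0.47 ± 0.19 (adjusted p = 0.998). Ltbp1 was at 16.4, 51.9, 14.1 and 20.3 CPM in KO against 39.3 to 63.4 CPM in WT (-0.88 ± 0.38, adjusted p = 0.998), and Smad1 at 39.4 to 58.7 CPM against 33.4 to 39.7 CPM (0.40 ± 0.20, adjusted p = 0.998). For both genes the groups overlapped.

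Other genes of the pathway were taken from lists set by their role. Of 17 tested secreted modulators and activators outside the members, 10 were higher and 1 lower in WT basal cells than in ML, 9 higher and 1 lower than in LP, and 6 were higher and 1 lower in LP than in ML. The shares that passed were 64.7%, 58.8% and 41.2%, beside 24.6%, 15.8% and 11.5% of all genes. Among them Fstl1, a follistatin-like protein gene, was higher in basal cells than in ML by 6.80 ± 0.65 (adjusted p = 2.82e-06), Bgn, a matrix proteoglycan gene, by 5.73 ± 0.59 (4.84e-06), and Crim1, a BMP-binding membrane protein gene, by 2.15 ± 0.25 (1.44e-05). Of 24 other ligand genes only 2 were tested: Bmp3 was lower in basal cells than in ML and higher in ML than in LP, where the log2 fold change of LP over ML was -4.95 ± 0.86 (adjusted p = 0.00121), and Gdf11 did not pass. Of 6 genes tested from the list of receptors and co-receptors, Itfg1 was lower in LP than in ML (-1.32 ± 0.30, adjusted p = 0.00885). Itfg1 is not an established receptor of this pathway, so its call is not read as one of a receptor. Eng, which endothelial cells also express, was higher in basal cells than in LP by 2.31 ± 0.59 (adjusted p = 0.0132). Eng is itself 1 of the 10 endothelial markers, so the values of that marker set include its own. With Eng included, 2 of 7 markers tested passed with higher basal values, 5 were fitted higher and 2 lower (median log2 fold change 1.41). The sums ran from 44.8 to 137 CPM in WT basal and from 22.0 to 40.8 CPM in WT LP. In unscaled counts of WT basal replicate 1, the library with the lowest of these basal sums, Eng had 167, Vwf 53, Cdh5 43 and Pecam1 22. The marker set was not compared without Eng. The part of the other endothelial markers in the Eng values was not tested. Of 21 intracellular regulators 5 passed between basal cells and ML, 4 higher and 1 lower, a share of 23.8% beside 24.6% of all genes, and 1 passed between basal cells and LP, 4.76% beside 15.8%. Dab2, an adaptor, was higher in basal cells than in ML by 2.70 ± 0.53 (adjusted p = 0.00144). The kinase gene Hipk2 was lower in basal cells than in ML (-1.85 ± 0.22, adjusted p = 1.44e-05). In unscaled counts Dab2 had 364, 248, 90 and 203 in WT basal and 550, 618, 199 and 288 in WT LP. Hipk2 had 922, 529, 542 and 1063 in WT basal and 1224, 937, 528 and 863 in WT LP. None of these genes passed between KO and WT.

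Genes known to respond to the pathway were counted in the same way. Of 17 tested TGF-beta and activin response genes 11 were higher and 1 lower in WT basal cells than in ML (median log2 fold change 2.24), and 6 were higher and 0 lower than in LP (median 0.51). Between LP and ML 4 were higher and 2 lower. The shares that passed were 70.6%, 35.3% and 35.3%, beside 24.6%, 15.8% and 11.5% of all genes. Tagln and Ctgf were higher in basal cells than in ML by 5.67 ± 0.57 (adjusted p = 4.27e-06) and 5.42 ± 0.58 (6.78e-06), and Tgm2, a transglutaminase gene, was lower (-2.83 ± 0.29, adjusted p = 4.99e-06). Tagln is also one of the basal markers and encodes a smooth muscle protein. Of 9 tested BMP response genes 4 were higher and 1 lower in basal cells than in ML, and 2 were higher and 1 lower than in LP. The shares were 55.6% and 33.3%, beside 24.6% and 15.8% of all genes. Between KO and WT none of the response genes passed, in any population. Of 10 BMP response genes tested in basal cells 8 were fitted higher in KO, as were 50.6% of all genes. Their median log2 fold change was 1.43, beside 0.01 for all genes. In LP 5 of 8 were fitted higher (median 0.70) and in ML 3 of 6 (median 0.02). Id3, an Id family gene induced by BMP, stood at 104, 51.0, 86.0 and 104 CPM in KO basal libraries and at 17.8, 11.1, 12.2 and 14.4 CPM in WT. The groups did not overlap, and the difference of 2.65 ± 0.42 had an adjusted p of 0.165. Id2, at 32.7, 28.7, 48.0 and 34.9 CPM against 17.2, 9.14, 11.1 and 14.7 CPM, did not overlap either (1.50 ± 0.54, adjusted p = 0.998). Id1, at 21.3, 2.23, 2.25 and 20.5 CPM against 0 to 4.53 CPM, overlapped. Among the members that are BMP response genes, the fitted log2 fold changes in KO basal cells were 1.36 for Bambi, 0.52 for Smad7 and -0.48 for Smad6, and none passed.

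Smad7 and Skil, both TGF-beta induced inhibitors of the pathway, differed between replicate numbers in both genotypes. Replicates 3 and 4 lay above replicates 1 and 2 of the same group in 6 of 6 groups for both genes, as for 0.547% of 14082 genes. For Smad7 replicates 3 and 4 averaged 4.38-fold the level of replicates 1 and 2 in WT basal cells, 4.43-fold in KO basal, 2.54-fold in WT LP, 3.57-fold in KO LP, 1.90-fold in WT ML and 2.65-fold in KO ML. For Skil these ratios were 1.91, 2.19, 1.48, 1.43, 1.84 and 1.87 in the same order. Tgfbr1 and Bmpr2 were higher in replicates 3 and 4 in 5 of 6 groups, and Acvr1b and Inhbb were lower in 5 of 6; over all genes 2.4% were higher and 2.29% lower in at least 5 groups. This arrangement of the libraries was seen after the values were known and is not part of the design, so no test is given. The replicate numbers are labelled as biological replicates, and the labels give no batch for them.

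**Figure D5:**
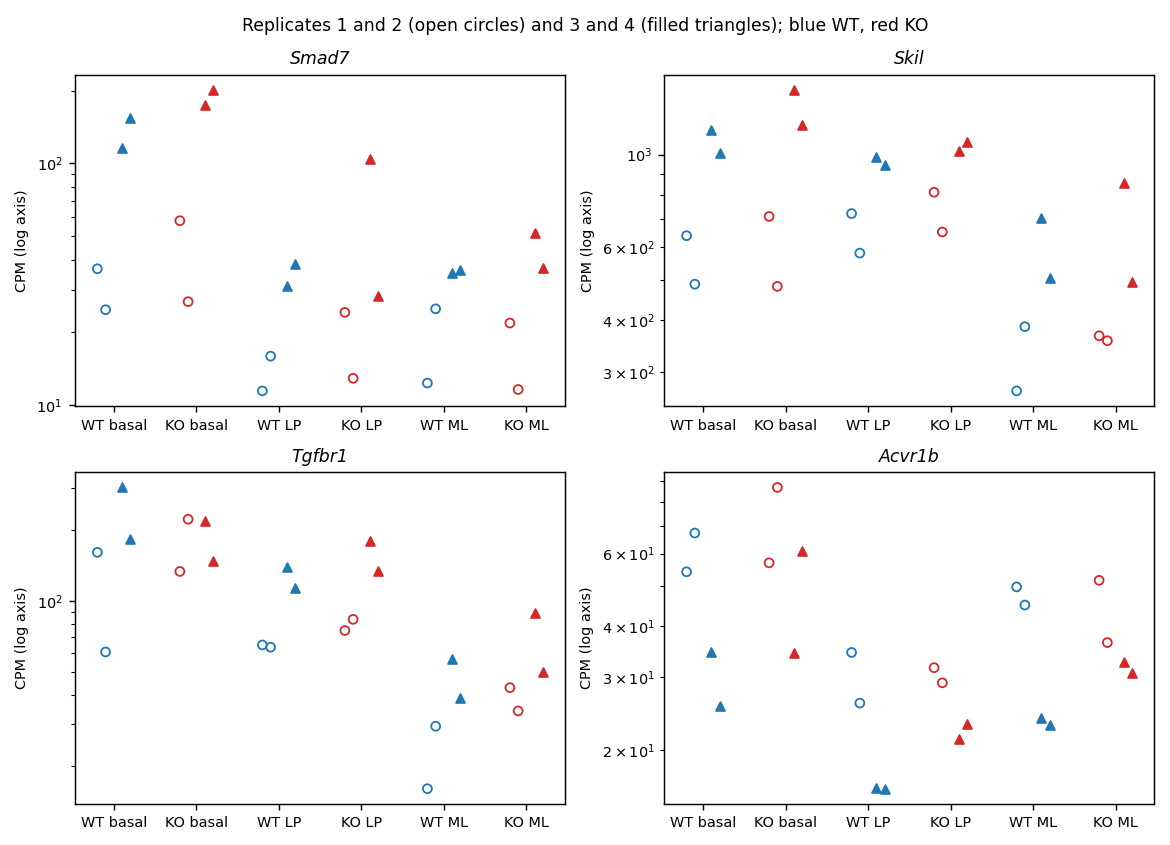
CPM on a log axis of Smad7, Skil, Tgfbr1 and Acvr1b in each library, with replicates 1 and 2 as open circles and replicates 3 and 4 as filled triangles (blue WT, red KO). For Smad7 and Skil both triangles lie above both circles in each of the 6 groups, and for Acvr1b they lie below in 5 of 6.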

How the data were processed

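The authors deposited 1 table of expected counts (estimated read counts per gene) for 24 libraries with a gene length column. Per the submitters' processing notes cutadapt, STAR, RSEM and the mouse build mm10 were used; no source used here gives their roles, versions, settings or strand handling. Libraries were made from 0.5 to 2 ng of RNA by whole-transcript amplification. Duplicate removal is not given, so counting intervals and the floor of 3 counts cover counting error only. Columns were matched to samples by title; the replicate tags of 2 KO ML samples differ from their titles, which were used.

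Expected counts were rounded to whole numbers. Tests used edgeR 4.0.16 in R 4.3.3 (TMM scaling, default expression filter, robust quasi-likelihood F-test, two-sided) with Benjamini-Hochberg adjustment over all genes tested and a threshold of 0.05: 1 fit on 12 WT libraries, 1 on 12 KO libraries, 1 per population for KO against WT on 8 libraries, and 1 on 24 libraries for the interaction contrasts. Alternatives were DESeq2 1.42.0, limma 3.58.1 (voom), RLE scaling, no filter, a replicate block, a fit on all 24 libraries, left-out replicates and, chosen after seeing the data, WT basal replicate 2 or KO basal replicate 3 left out and population fits within replicates 1 and 2 or 3 and 4. The code was tested on simulated data.

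Members and lists were chosen with earlier results of these data known. Values are given for members that passed between WT populations with a mean of at least 5 CPM in the highest, the 3 members with the smallest p per population between KO and WT, and the smallest per interaction contrast. Replicate pairs agreed less closely than counting noise (chi-square per degree of freedom at least 19). Whether the replicate number pairs samples is not settled. For KO and WT samples of the same number, deviations from the group means correlated by 0.055 to 0.135 in basal cells. In LP and ML they correlated by 0.114 to 0.342. The own number gave the highest correlation for 4 of 4 replicates in basal cells, 3 of 4 in LP and 2 of 4 in ML. Between populations the lowest correlation was 0.057 in WT and -0.002 in KO. The main tests used no pairing, and the replicate block is an alternative.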

Additional observations from a re-analysis of the deposited data

Results flagged for a closer look

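Over the 22 named members and 6 groups, 132 sets of 4 libraries were examined, and in 10 of them 1 library lay far from the others by Dixon's criterion; chance alone marks about 1 set in 20. WT basal replicate 2, the library rich in luminal progenitor markers, stood at 239.9 CPM for Inhbb (others 10.5 to 19.0) and at 77.2 CPM for Smad2 (others 41.6 to 46.9). KO basal replicate 2 held 26.6 CPM of Inhbb (others 4.88 to 8.48), and it is the KO basal library with the most luminal progenitor marker RNA, at 1333 CPM. Ski was at 605 CPM in KO basal replicate 3 (others 367 to 378), the library with 298 CPM of endothelial markers, and Tgfb3 at 129 CPM in WT basal replicate 4 (others 48.4 to 53.2). KO LP replicate 1 held the most fibroblast marker RNA of its group (687 CPM, others 179 to 369). In KO LP, Ltbp4 was at 29.6 CPM in replicate 1 (others 5.20 to 8.75), Nbl1 at 8.26 CPM in the same library (others 1.40 to 2.37) and Smad7 at 104 CPM in replicate 3 (others 12.9 to 28.2). In ML libraries Inhba was at 52.9 CPM in WT replicate 2 (others 9.75 to 15.5) and Ltbp1 at 51.9 CPM in KO replicate 2 (others 14.1 to 20.3). KO ML replicate 2 is also the ML library with the most luminal progenitor marker RNA, at 1306 CPM, and the least mature luminal marker RNA, at 4609 CPM.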

How the results depend on the processing

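All 73 calls of a member between 2 populations of 1 genotype kept their direction in every alternative run, and 17 of them passed in each of the 12 alternatives. Leaving out 1 replicate at a time, the members called ran from 8 to 14 between WT basal cells and LP (13 with all), 11 to 16 between WT basal cells and ML (16), 4 to 9 between WT LP and ML (10), 8 to 14 between KO basal cells and LP (15), 10 to 14 between KO basal cells and ML (14), and 0 to 5 between KO LP and ML (5; 7 without KO basal replicate 3 alone). Within replicates 1 and 2 alone the counts were 4, 6 and 0 in WT and 8, 9 and 0 in KO for these 3 contrasts; within replicates 3 and 4 they were 5, 8 and 1 in KO. DESeq2 called 8 members between KO LP and ML. For these population runs the shares of all genes are not given here, so the counts do not show a change particular to the members. Without the expression filter 1 member, Inhbb, passed between KO and WT basal cells (-2.53, adjusted p = 0.0354). Over all genes 0, 0 and 1 passed between KO and WT in basal cells, LP and ML, and DESeq2 called 21, 4 and 11; in basal cells 30 passed without the filter and 13 in the fit on all 24 libraries. Ski between KO and WT LP turned to -0.0499 within replicates 1 and 2, and the log2 ratio of Tgfbr1 to Tgfbr2 in KO LP turned to 0.47 with exon union lengths. With the replicate block 15, 17 and 11 members passed between WT populations and 15, 17 and 6 between KO populations. Over all genes 2239, 3294 and 1748 passed in WT with the block, and 2018, 3140 and 1470 without it. In KO 2002, 2653 and 852 genes passed with the block, and 1883, 2463 and 721 without it. Between KO and WT 0 members passed in each population, as without the block. Genes under about 5 CPM rest on few counts. With 4 replicates per group, 2-fold and larger differences between KO and WT could go undetected, most often in basal cells. The causes of the shifts between runs were not tested.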
